A study of Myotis pilosus with 4 samples.

Results

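miR-142 and miR-486 are microRNAs (miRNAs) of blood cells, and both arms of each hairpin were examined here in brain and white adipose tissue (WAT) of the bat *Myotis ricketti*. The members were miR-142-5p, miR-142-3p, miR-486-5p and miR-486-3p, which are 4 of the 119 conserved mature miRNAs that the study lists beside 77 others without a known ortholog. They were chosen by name, and their mature sequences were looked up among the distinct clean sequences (tags) of each small RNA library. All 4 were found in every library. The libraries were hibernating brain (HB), active brain (AB), hibernating WAT (HA) and active WAT (AA), and the labels call the active state aroused. Each library came from the pooled RNA of 3 adult wild bats, with no treatment, and brain and WAT of a state came from the same bats. The active bats were caught in autumn and the hibernating bats late in winter at the same site, so state and season cannot be told apart. There was 1 library per group and no replicate, so no p-value is given and each interval covers counting error only.

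A miRNA hairpin is cut into a 5p and a 3p arm, and a loaded arm recognises its target mRNAs mainly through its seed, the bases next to its 5′ end. miR-142 is made in cells of the blood lineage, which include circulating leukocytes as well as the macrophages and microglia that live in tissue. miR-486 is abundant in red cells and is also made in skeletal muscle, where its hairpin lies within the gene of the membrane adaptor ankyrin 1.

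The listed sequences are shown because every count rests on them. They are written 5′ to 3′ with the seed, bases 2 to 8, in capitals, and no 2 of them share a seed.
miR-142-5p: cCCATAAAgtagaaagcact
miR-142-3p: gTAGTGTTtcctactttatgga
miR-486-5p: tCCTGTACtgagctgccccga
miR-486-3p: cGGGGCAGctcagtacaggatg
The reverse complement of miR-486-5p shares a run of 20 bases with miR-486-3p, so the arms of this hairpin are nearly perfectly complementary. In miR-142 the longest such run is 11 bases.

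These sequences were only part of what the libraries held, since many tags carried the same miRNA with a few bases more or fewer. When every tag with bases 4 to 18 of the listed sequence was counted, miR-142-5p had 8752 reads in 215 tags over the 4 libraries and the listed tag took 23.4% of them. The listed tag took 16.6% of 350 reads of miR-142-3p, 16.4% of 24600 reads of miR-486-5p and 32.8% of 2468 reads of miR-486-3p. For miR-142-5p and miR-486-3p the listed tag was the most abundant form over the 4 libraries together, and for the other 2 arms it was not. The forms with a shifted start or a more abundant end are shown next, with the seed that each start gives in capitals.
miR-142-5p from base 3: cATAAAGTagaaagcacta
miR-142-5p from base 4: aTAAAGTAgaaagcactactaa
miR-142-3p, commonest tag: gTAGTGTTtcctactttatgg
miR-142-3p from 1 base upstream: tGTAGTGTttcctactttatgg
miR-486-5p, commonest tag: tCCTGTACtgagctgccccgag
The commonest tag of miR-142-3p was 1 base shorter than the listed sequence and that of miR-486-5p was 1 base longer. The shifted starts of both miR-142 arms change the seed, whereas the longer miR-486-5p tag keeps it.

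All 4 miRNAs were higher in WAT than in brain within each state. HB held 136 reads of the listed miR-142-5p tag, AB 59, HA 958 and AA 895. These are 11.2, 5.90, 83.0 and 78.3 reads per 1000000 clean reads (rpm), so both WAT libraries lay well above both brain libraries. miR-142-3p was the rarest arm, at 2 reads in HB and 1 in AB against 18 and 37 in HA and AA. Counts of miR-486-5p were 149 (HB), 326 (AB), 1795 (HA) and 1763 (AA), or 12.3, 32.6, 156 and 154 rpm. Its levels in the 2 WAT libraries lay within each other's counting intervals, and the brain libraries were far apart. miR-486-3p, the other arm of that hairpin, had 55, 238, 151 and 365 reads in HB, AB, HA and AA, or 4.52, 23.8, 13.1 and 31.9 rpm. This arm was the only one with a brain library (AB) above a WAT library (HA). The depth was 10007650 to 12159756 clean reads, at which the floor of 3 reads equals 0.247 to 0.300 rpm, so the listed tag of miR-142-3p in brain was below the floor.

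**Figure D1:**
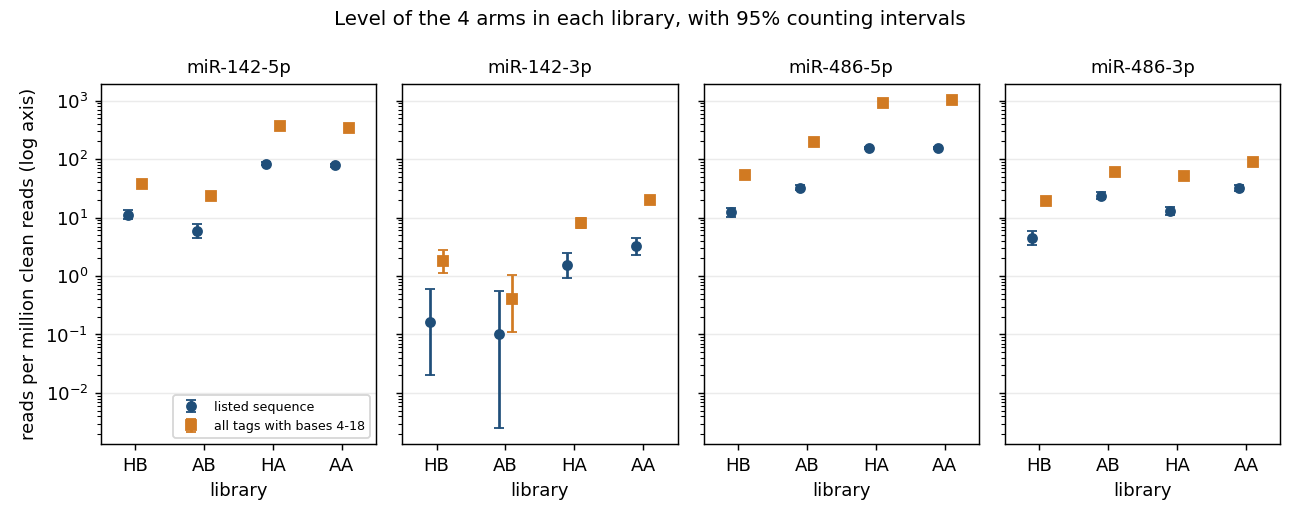
Level in rpm (log axis) of each arm in the 4 libraries, for the listed sequence (circles) and for all tags with bases 4 to 18 (squares), with 95% Poisson intervals. The WAT libraries HA and AA lay above the brain libraries HB and AB for miR-142-5p, miR-142-3p and miR-486-5p, and AB lay above HB for both arms of miR-486.

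Libraries were compared by log2 ratios scaled with the trimmed mean of M-values (TMM) over all listed miRNAs, with 95% Clopper-Pearson intervals. Between HA and HB the log2 ratio was 2.99 (interval 2.73 to 3.26) for miR-142-5p, 3.34 (1.28 to 6.49) for miR-142-3p, 3.76 (3.52 to 4.01) for miR-486-5p and 1.63 (1.17 to 2.10) for miR-486-3p. A log2 ratio of 1 was exceeded by 35.2% of the 159 listed miRNAs with at least 10 reads in the pair, and by miR-142-5p and both arms of miR-486. miR-142-3p reached the 10 reads only through WAT, where it was high, and is not counted. Between AA and AB it was 3.82 (3.44 to 4.23) for miR-142-5p, 5.11 (2.54 to 10.45) for miR-142-3p, 2.33 (2.16 to 2.51) for miR-486-5p and 0.52 (0.28 to 0.76) for miR-486-3p. The 5p arms exceeded 1 and miR-486-3p did not, against 36.5% of 159 miRNAs. The value of miR-142-3p rests on 1 read in AB and is again not counted. The median over all miRNAs was -0.20 for HA against HB and 0.01 for AA against AB. In whole tissue, fewer cells of a type and less RNA per cell cannot be told apart.

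In brain, miR-142-5p and the 2 arms of miR-486 differed between states in opposite directions. miR-142-5p was higher in HB than in AB, with a log2 ratio of 1.21 (interval 0.76 to 1.68), which is 2.32-fold. Both arms of miR-486 were lower in HB, miR-486-5p with a log2 ratio of -1.12 (-1.41 to -0.84) and miR-486-3p with -2.10 (-2.55 to -1.68). No ratio was taken for the listed tag of miR-142-3p, with 2 reads against 1. Of the 3 miRNAs with a ratio, 1 was higher and 2 were lower by at least 1, against 22.9% higher and 17.6% lower among 153 listed miRNAs, whose median was 0.01. In numbers, 35 of these miRNAs were higher and 27 lower with TMM, but 26 were higher and 37 lower with clean reads as the scale. Ratios of that size were thus common among the miRNAs in brain.

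The longer and shorter tags kept these directions in brain. With all tags that hold bases 4 to 18, the 464 miR-142-5p reads of HB against the 233 of AB gave a log2 ratio of 1.0 (0.77 to 1.24). miR-142-3p had 22 reads against 4, a log2 ratio of 2.47 (0.91 to 4.47). This arm reached the minimum of reads for a ratio only through HB, where it was high, and is not counted. miR-486-5p had 638 reads against 1933 and a log2 ratio of -1.59 (-1.72 to -1.46). miR-486-3p had 233 reads against 612 and a log2 ratio of -1.38 (-1.61 to -1.16). The gap between the arms of miR-486 seen with the listed tags therefore narrowed when all tags were counted.

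In WAT, no arm differed between states by a log2 ratio of 1, whereas 20.4% of the listed miRNAs with at least 10 reads were higher by at least that much in HA and 28.9% were lower, with a median of -0.29. These were 29 and 41 miRNAs with TMM, and 23 and 54 with clean reads. miR-142-5p had a log2 ratio of HA to AA of 0.43 (0.30 to 0.57) and miR-486-5p of 0.36 (0.27 to 0.46). miR-142-3p had -0.70 (-1.60 to 0.15), and miR-486-3p had -0.94 (-1.22 to -0.66). The 5p arms lay slightly above 0 and the 3p arms below it, and the interval of miR-142-3p included 0. The scaling set much of these values. With clean reads in place of TMM, the ratio was 0.08 for miR-142-5p and 0.01 for miR-486-5p, and with TMM over the conserved miRNAs alone it was 1.21 and 1.14. That last scaling also turned the sign of the listed miR-142-3p tag, to 0.075. With all tags, the count of miR-142-3p was 94 in HA against 230 in AA. With TMM over all listed miRNAs its log2 ratio was -0.95 (-1.32 to -0.60), an interval that did not include 0. This count was not scaled by TMM over the conserved miRNAs.

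The state ratio of miR-486-5p was lower in brain than in WAT by 1.48 on the log2 scale (difference -1.48, interval -1.79 to -1.18). For miR-486-3p the difference was -1.17 (-1.70 to -0.65). For miR-142-5p the state ratio was higher in brain than in WAT, by 0.78 (0.31 to 1.27), but this value depended on the processing. It was 0.13 with TMM over the conserved miRNAs, 0.37 with the reads of all listed miRNAs as the scale and 0.30 with tags that hold the first 18 bases.

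The balance between the 2 hairpins within a library needs no scaling between libraries. miR-142-5p made up 47.7% (41.8 to 53.7) of the summed reads of miR-142-5p and miR-486-5p in HB and 15.3% (11.9 to 19.3) in AB. In WAT it made up 34.8% (33.0 to 36.6) in HA and 33.7% (31.9 to 35.5) in AA. HB thus had the highest share and AB the lowest, and the WAT libraries lay between them with intervals that overlapped. The ratio of miR-142-5p to miR-486-5p was 5.04-fold higher in HB than in AB, a log2 odds ratio of 2.33 (1.79 to 2.88). In WAT the log2 odds ratio of HA to AA was 0.07 (-0.09 to 0.24). With all tags that hold bases 4 to 18, the shares of HB and AB were 42.1% and 10.8%, those of HA and AA were 28.4% and 25.2%, and the log2 odds ratio was 2.59 (2.33 to 2.86) in brain and 0.23 (0.16 to 0.30) in WAT. The order of the libraries was the same under both count rules. Since tags differ in how well they ligate to adapters, a share of reads is not a share of molecules.

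**Figure D2:**
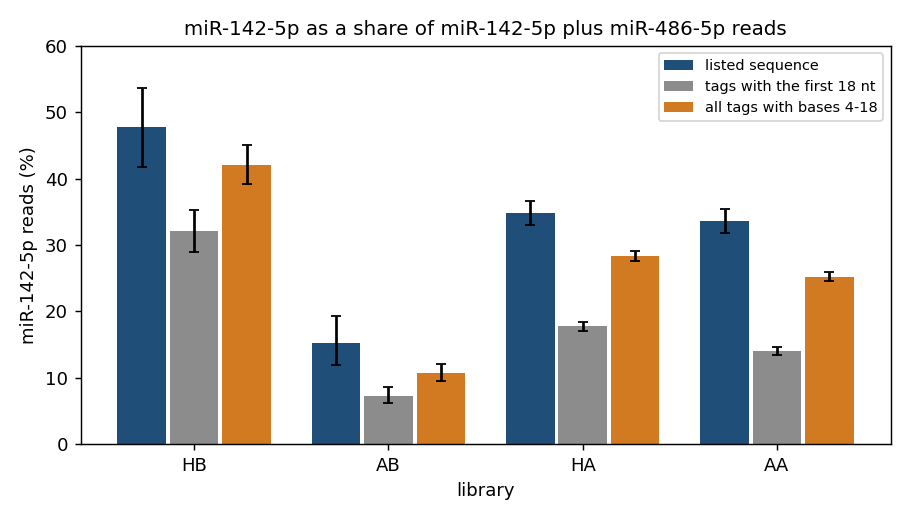
Reads of miR-142-5p as a percent of miR-142-5p plus miR-486-5p reads in each library, by 3 count rules, with 95% binomial intervals. Under each rule HB had the highest share and AB the lowest, from 47.7% to 15.3% for the listed sequences.

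Other miRNAs of red cells were read beside miR-486. Besides the 2 arms of miR-486, the list held miR-16-5p, its star strands miR-16-1-3p and miR-16-2-3p, miR-92a-3p and miR-363-3p, which red cells hold but many tissues also make. The 7 together reached 109 rpm (HB), 227 (AB), 806 (HA) and 1292 (AA). Most of this sum was miR-16-5p, with 945 rpm in AA, and miR-363-3p went the other way between tissues, with 14.8 and 21.0 rpm in HB and AB against 11.6 and 5.77 rpm in HA and AA. In brain, 5 of the 7 had enough reads for a ratio, and all 5 were below 0 and 3 were lower in HB by at least 1, with a median of -1.04. Over all 153 miRNAs 17.6% were lower by at least 1, and 79 lay above 0. Both arms of miR-486 were among the 3 lower members of the list, so its count and median rest in part on miR-486 itself. Between HB and AB the log2 ratio was -0.58 (-0.71 to -0.45) for miR-16-5p, -1.04 (-1.31 to -0.78) for miR-92a-3p and -0.21 (-0.51 to 0.08) for miR-363-3p. In WAT the 5 had a median of -0.41. There miR-16-5p (-0.41) and miR-92a-3p (-0.87) were lower in HA, in contrast to miR-486-5p, and miR-363-3p was higher (1.36, 0.92 to 1.81). For leukocytes the list held only the 2 arms of miR-142, whose summed level was 11.3 and 6.0 rpm in HB and AB, and 84.6 and 81.5 rpm in HA and AA.

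Per 1000 reads of miR-16-5p in the same library, there were 197 (HB), 286 (AB), 278 (HA) and 163 (AA) reads of miR-486-5p. The listed tag of miR-486-5p was thus lower relative to miR-16-5p in HB than in AB, and higher in HA than in AA. Relative to miR-92a-3p it was close in the brain libraries, with 851 and 898 reads per 1000 in HB and AB, and higher in HA (2340) than in AA (998). Per 1000 reads of miR-16-5p, those of miR-142-5p numbered 180 (HB), 51.8 (AB), 148 (HA) and 82.8 (AA). Per 1000 reads of miR-92a-3p they numbered 777, 163, 1249 and 507 in the same order. On both measures miR-142-5p was higher in the hibernating library of both tissues. With TMM, however, both references were themselves lower in the hibernating libraries. The log2 ratios of HB to AB and of HA to AA were -0.58 and -0.41 for miR-16-5p, and -1.04 and -0.87 for miR-92a-3p. These measures therefore do not describe miR-142-5p alone.

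Markers of muscle and brain were read in the same libraries. miR-1-3p, miR-133-3p and miR-206-3p, the miRNAs of striated muscle, summed to 1948 rpm (HB), 1605 (AB), 17409 (HA) and 18253 (AA). All 3 were higher in WAT than in brain in both states, as were the 4 blood cell miRNAs. miR-1-3p made up most of that sum, with 1807, 1401, 16998 and 17687 rpm in HB, AB, HA and AA. Its state ratio on the log2 scale was 0.66 for HB to AB and 0.29 for HA to AA. The ratios of miR-206-3p were -0.24 and -0.061, and those of miR-133-3p, with 4 and 9 reads in HB and AB and 84 and 331 in HA and AA, were -1.16 and -1.64. Per 1000 reads of miR-1-3p, the reads of miR-486-5p numbered 6.78 (HB), 23.3 (AB), 9.15 (HA) and 8.72 (AA), so AB stood apart and the other 3 libraries were close. On the same measure miR-142-5p had 6.19, 4.21, 4.88 and 4.42 reads in HB, AB, HA and AA, a narrow range. miR-1-3p was the only muscle miRNA used as a reference, so both ranges hold for it alone. With TMM over all listed miRNAs, the state ratios of miR-206-3p and miR-133-3p lay on the other side of 0 from its own in both tissues. The interval of miR-133-3p in brain, -3.31 to 0.68, included 0. In WAT the signs of miR-1-3p and miR-206-3p depend on the scaling. The log2 factor of HA to AA was -0.34 with TMM, 0.01 with clean reads and -1.11 with TMM over conserved miRNAs. The part of muscle RNA in these levels was not tested. The 6 brain miRNAs, forms of miR-124, miR-9 and miR-219, summed to 40996 rpm in HB and 56519 rpm in AB, but to 35.7 in HA and 33.0 in AA, and all 6 were lower in WAT.

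The 5p arm was the more abundant arm of both hairpins in every library. For miR-142 its share of the reads of both arms was 98.6% and 98.3% in HB and AB, and 98.2% and 96.0% in HA and AA. The brain shares rest on 2 and 1 reads of the listed miR-142-3p tag, below the floor, and do not compare the states. With all tags that hold bases 4 to 18 they were 95.5% in HB and 98.3% in AB. For miR-486 HB and AB had shares of 73.0% (66.4 to 79.0) and 57.8% (53.6 to 61.9), and HA and AA had 92.2% (91.0 to 93.4) and 82.8% (81.2 to 84.4). The arms of miR-486 were thus closer in brain than in WAT, with log2 odds ratios of 2.13 (1.60 to 2.66) for HA to HB and 1.82 (1.52 to 2.12) for AA to AB. Counting all tags that hold bases 4 to 18 kept this difference between tissues, at 2.72 (2.46 to 2.97) and 1.81 (1.65 to 1.97).

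Between states, the arm balance of miR-486 in brain depended on which tags were counted. With the listed tags the 5p share was higher in HB than in AB, with a log2 odds ratio of 0.98 (0.46 to 1.52). With all tags it was 73.2% in HB and 76.0% in AB, and the log2 odds ratio was -0.21 (-0.46 to 0.05), close to the median of -0.20 over the 32 listed hairpins with at least 10 reads of each arm in each brain library. In WAT the 5p share was higher in HA than in AA under both rules, with log2 odds ratios of 1.30 (1.0 to 1.60) and 0.70 (0.55 to 0.85). For miR-142 in WAT the corresponding values were 1.14 (0.28 to 2.05) and 1.40 (1.04 to 1.77). With all tags, the median over 26 hairpins in WAT was 0.64, and 3 other hairpins had a value above that of miR-142. A higher 5p share in HA was therefore common among hairpins.

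**Figure D3:**
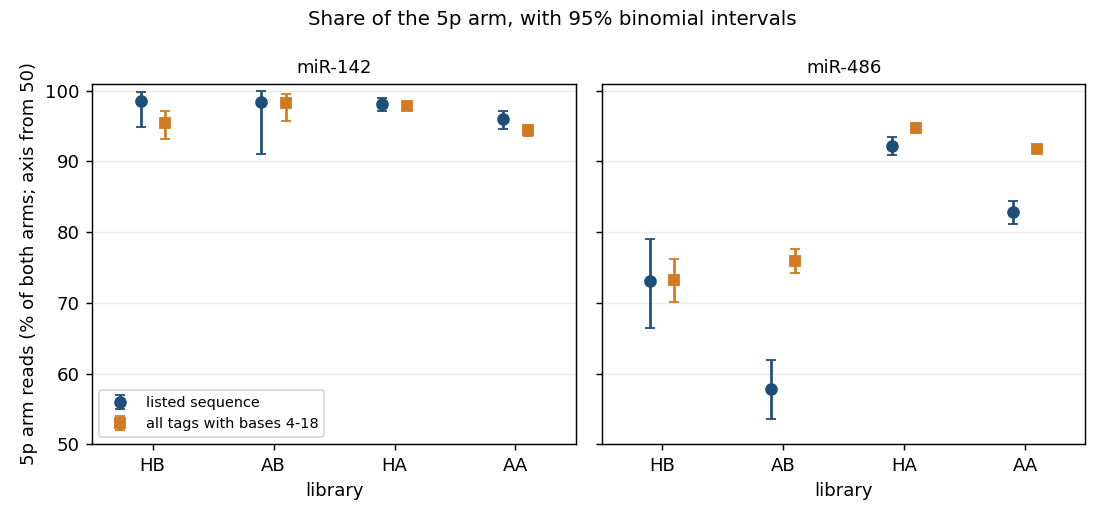
The 5p arm as a percent of the reads of both arms of miR-142 and miR-486 in each library, for the listed sequences (circles) and for all tags with bases 4 to 18 (squares), with 95% binomial intervals and an axis that starts at 50%. For miR-486 in AB the share was 57.8% with the listed sequences and 76.0% with all tags.

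The 5′ start of miR-142-5p was divided between several positions, whereas the start of miR-486-5p was almost fixed. Of the 8752 miR-142-5p reads, 51.9% began at base 1 of the listed sequence, 40.4% (3536 reads) at base 3 and 5.58% (488 reads) at base 4. The start at base 3 took 29.3% (25.2 to 33.7) and 25.8% (20.3 to 31.9) of the reads in HB and AB, against 39.8% (38.3 to 41.3) and 43.3% (41.7 to 44.9) in HA and AA. The 2 WAT libraries lay above the 2 brain libraries. The log2 odds ratio of the start at base 3 to that at base 1 was 0.59 (0.27 to 0.91) for HA to HB and 1.15 (0.69 to 1.62) for AA to AB. Between states it was 0.26 (-0.28 to 0.81) in brain, where the interval included 0, and -0.30 (-0.43 to -0.16) in WAT.

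**Figure D4:**
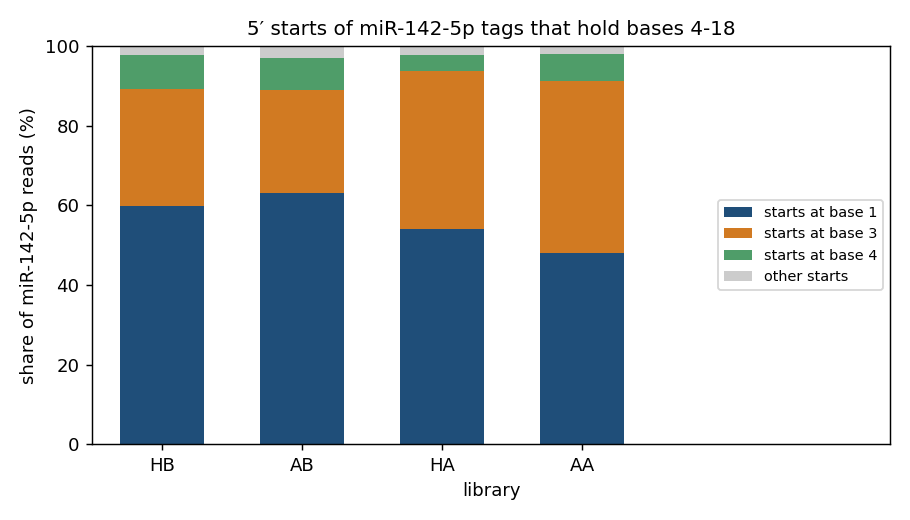
Percent of miR-142-5p reads by the base of the listed sequence at which the tag starts, among tags with bases 4 to 18. The start at base 3 took 29.3% in HB and 25.8% in AB, and 39.8% in HA and 43.3% in AA.

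The mean 3′ end of miR-142-5p tags was later for later starts, which the minimum tag length of 18 bases fixes in part. Reads from base 1 ended on average 0.515 bases past the listed end, reads from base 3 ended 1.89 bases past it and reads from base 4 ended 3.97 bases past it. Single tags of miR-142-5p differed in direction in WAT. The 19-base tag from base 3 had 761 reads in HA against 581 in AA, and its log2 ratio was 0.73 (0.57 to 0.88). The 18-base tag from base 3 had 0.019 (-0.33 to 0.37), and the commonest 20-base tags had -0.31 and 1.04. From the same start, the commonest 21-base tag had -0.59 (-0.87 to -0.32) and the commonest 22-base tag had -1.51 (-2.01 to -1.03). The tag from base 4 shown above had 44 reads in HA against 148 in AA, and its log2 ratio was -1.41 (-1.93 to -0.92). In brain the 19-base tag from base 3 had 45 reads in HB against 14 in AB. The 18-base tag had 17 against 9, and the tag from base 4 had 20 against 9. The intervals of the last 2 included 0 in brain.

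The commonest miR-142-3p tag, 1 base shorter than the listed sequence, was read 12 times in HB and 1 time in AB, and 35 and 115 times in HA and AA. Its log2 ratio of HA to AA was -1.38 (-1.97 to -0.82). The start 1 base upstream had 34 reads over the 4 libraries, 9.71% of the miR-142-3p reads. HB held 3 of them, HA 12 and AA 19. AB held 0, but with 4 miR-142-3p reads in all its share there was not detectable.

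For miR-486-5p, 97.8% of the reads began at base 1, and the tags differed at the 3′ end. The 22-base tag was read 129 (HB), 560 (AB), 3417 (HA) and 3820 (AA) times. The 23-base tag tCCTGTACtgagctgccccgaga had 99, 369, 2314 and 2606 reads, and the listed 21-base tag came after these in AB, HA and AA. In HB the listed tag, with 149 reads, was the most abundant. Between HB and AB the 19-base tag had a log2 ratio of -0.83 (-1.35 to -0.32) and the listed tag one of -1.12. The 22-base tag had -2.11 (-2.40 to -1.83) and that 23-base tag -1.89 (-2.22 to -1.57). The longer tags were therefore further below 0 in brain. In WAT the same 4 tags had log2 ratios of 0.42, 0.36, 0.18 and 0.16, a much smaller range.

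**Figure D5:**
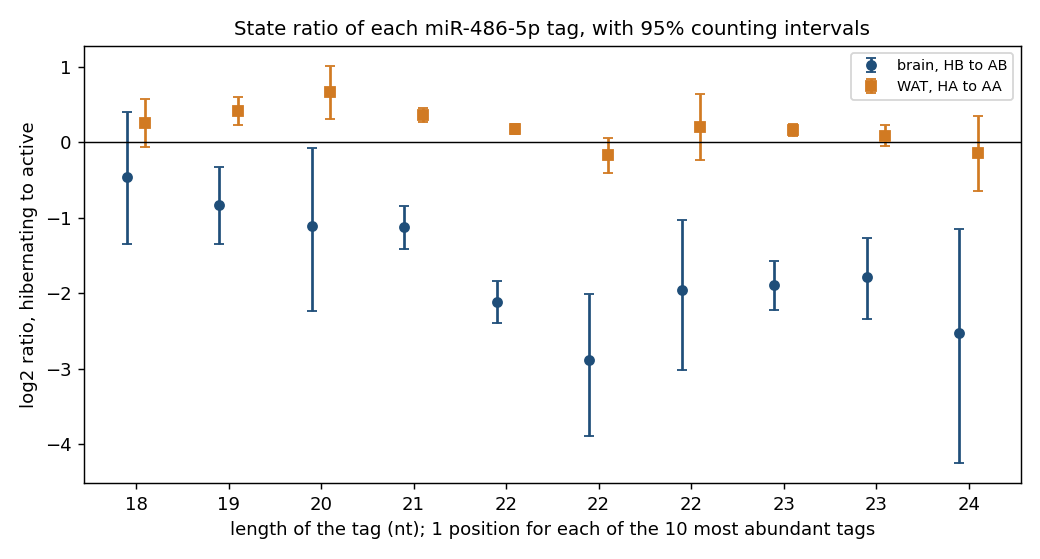
Log2 ratio of hibernating to active (TMM scaling) for each of the 10 most abundant miR-486-5p tags, ordered by length, in brain (circles) and WAT (squares), with 95% intervals. In brain the tags of 22 bases and more had lower ratios than the tags of 21 bases and fewer, for example -2.11 for the commonest tag against -1.12 for the listed tag.

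Among miR-486-5p reads that began at base 1, tags that ran past the listed end were 59.3% (HB), 73.8% (AB), 74.4% (HA) and 77.3% (AA) of the reads. HB had the lowest such share, with a log2 odds ratio of -0.95 (-1.24 to -0.67) against AB. This lay below the median of -0.21 over 123 listed miRNAs with at least 10 reads on each side of their listed end, of which 15 were as low, miR-486-5p included. For miR-142-5p the value was -0.82 (-1.43 to -0.21). In WAT the value of miR-486-5p for HA to AA was -0.23 (-0.32 to -0.14). It also lay below the median there, which was 0.74 over 118 miRNAs, of which 13 were as low, miR-486-5p included. The 3p arm of miR-486 differed the other way. Tags past its listed end were 48.4% (HB), 25.7% (AB), 58.3% (HA) and 46.6% (AA) of its reads. Its log2 odds ratio of HB to AB was 1.44 (0.96 to 1.92), and of the 123 miRNAs 1 other was as high. In WAT the value was 0.68 (0.37 to 0.99), close to the median of 0.74 over 118 miRNAs.

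The listed tags of the 2 arms of miR-486 lay at different points of the length range, and the share of each arm that its listed tag took differed between the brain libraries. The listed tag took 38.9% of all miR-486-3p reads in AB but 16.9% of all miR-486-5p reads, and in HB it took 23.6% and 23.4%.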

How the data were processed

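Small RNA of 4 pools was sequenced on the Solexa platform. Per the file headers, the authors deposited a read count for each distinct clean sequence and the length of that tag, not normalized, after removal of adapters and low quality reads. The study aligned reads with Bowtie to the *Myotis lucifugus* genome, but the deposited tags are not restricted to aligned reads. No genome was used here and 0 columns were left unmapped to a sample. Mature sequences were taken from the study's list. The main count was that of the identical tag, and the other count rules were tags with the first 18 bases, with bases 2 to 17 or 4 to 18, or with 1 mismatch. Ratios were scaled by TMM (edgeR 4.0.16, R 4.3.3), with the median of ratios (DESeq2 1.42.0) and read totals as alternatives. No model was fitted. Intervals at 95% came from SciPy 1.17.1 (exact Poisson, Clopper-Pearson and conditional odds ratio) and leave out PCR duplication and the spread between bats. Background shares used miRNAs with at least 10 reads over the pair. A library at 0 was set to the floor of 3 reads, per library. The scripts were tested on simulated counts. Named were the 4 arms, the marker lists, the 3 most abundant tags of each arm, each start with at least 5% of reads, and the 3 miRNAs closest to each arm in level. Other tags were named after their values were seen. The members and lists were chosen with earlier results of these data known. Endothelial and liver lists and other leukocyte, red cell and muscle miRNAs were not analysed here.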

Additional observations from a re-analysis of the deposited data

Results flagged for a closer look

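The state ratio of miR-486-5p had opposite signs in the 2 tissues, lower in HB than in AB and slightly higher in HA than in AA, and the brain value minus the WAT value was -1.48 on the log2 scale. With 1 library per group this difference between tissues was not tested. The sign in WAT depended on the scaling and count rule, whereas that in brain was negative under every alternative that was run.

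Tags with shifted starts lie outside the listed sequences and outside the main counts. miR-142-5p had 3536 reads that began at base 3 and 488 reads that began at base 4, and miR-142-3p had 34 reads that began 1 base upstream of the listed start. All 3 counts exceed the floor of 3 reads.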

How the results depend on the processing

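In brain, each ratio of HB to AB kept its sign in every alternative. For miR-486-5p it was -1.41 with clean reads, -1.66, -1.65 and -1.59 with tags holding the first 18 bases, bases 2 to 17 and bases 4 to 18, and -1.93 and -1.74 when TMM was also recomputed over the first and last of these tag sets, 2 alternatives chosen after seeing the data. For miR-486-3p the same tag rules gave -1.39, -1.38 and -1.38, or -1.66 and -1.53 with TMM recomputed, and miR-142-5p fell to 0.65 with 18 bases and TMM recomputed. The cause was not tested. No ratio of the listed miR-142-3p tag was possible in brain.

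In WAT the scaling moved every 5p ratio. Scaled by clean reads, by all listed miRNA reads, by median of ratios and by TMM over conserved miRNAs, miR-142-5p was 0.085, 0.75, 0.68 and 1.21, and miR-486-5p was 0.013, 0.68, 0.61 and 1.14. The log2 factor of HA to AA was -0.34 with TMM, 0.01 with clean reads and -1.11 with TMM over conserved miRNAs, which shifts every ratio by the same amount. miR-486-3p was -1.29 with clean reads, -0.62 with all listed miRNA reads and -0.16 with conserved miRNAs. With 18 bases, bases 2 to 17 and bases 4 to 18, miR-486-5p was 0.22 each time and miR-486-3p was -0.50, -0.49 and -0.48, and the first 2 rules gave 0.62 and 0.63 for miR-142-5p. With TMM recomputed, 18 bases gave 0.12 for the 5p and -0.59 for the 3p arm of miR-486, and bases 4 to 18 gave 0.19 for miR-142-5p and -0.043 for miR-486-5p, which turned its sign. miR-142-3p, -0.70 with an interval that included 0 for its listed tag, ranged from -1.21 with bases 4 to 18 and TMM recomputed to 0.075 with TMM over conserved miRNAs, which turned its sign too. The brain minus WAT difference of miR-142-5p ranged from 0.13 to 0.84, that of miR-486-5p from -2.13 to -1.42 and that of miR-486-3p from -1.81 to -0.79.

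The share of miR-142-5p with the first 18 bases was 32.1% (HB), 7.33% (AB), 17.8% (HA) and 14.1% (AA), and with bases 4 to 18 it was 10.8%, 28.4% and 25.2% in AB, HA and AA. The 5p share of miR-142 with 18 bases was 93.9% in HB, 96.7% in HA and 90.4% in AA, and with bases 4 to 18 it was 94.4% in AA. That of miR-486 was 75.9%, 94.9% and 91.9% in AB, HA and AA with 18 bases, and 76.0%, 94.7% and 91.7% with bases 4 to 18. With a minimum of 100 reads, 18 miRNAs were higher and 14 lower for HB to AB, 17 and 21 for HA to AA, 35 and 43 for HA to HB, and 35 and 39 for AA to AB, since fewer miRNAs were counted. The tissue ratios stayed above 0, between 0.33 for miR-486-3p and 6.50 for miR-142-3p. Depth limits miR-142-3p in brain, and pooling leaves the spread between bats unknown.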

Other observations

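The miRNAs closest in level to each arm over the 4 libraries were found by the Euclidean distance of log2 of rpm plus 0.1, centred over the libraries, among the 129 others with at least 100 reads (130 for miR-142-3p). With 4 points each and 1 large tissue difference, likeness is a description. miR-142-5p was closest to miR-503-5p (distance 0.370), miR-1-3p (0.426) and miR-145-3p (0.570). miR-503-5p had 20.1 and 14.6 rpm in HB and AB, and 191 and 150 rpm in HA and AA. miR-142-3p was closest to miR-1468-5p (0.506), miR-130-3p (0.565) and miR-1-3p (0.678). miR-1468-5p had 1.81 and 1.90 rpm in HB and AB, 12.2 in HA and 35.7 in AA.

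For miR-486-5p the nearest was a miRNA that the study lists without a known ortholog, cAGGGGATgtccgactgct (seed in capitals, 0.648), with 0.658, 1.40, 6.93 and 11.9 rpm in HB, AB, HA and AA. It was followed by miR-16-5p (0.683) and miR-28-3p (0.723). The arm miR-486-3p had no neighbour as close. Its nearest were the miRNAs tGATCAGCcgttgcctctctct (0.901) and cAAGCTCGcttctatgggtctgt (1.02), also without a known ortholog, and miR-139-3p (0.992), which had 24.3 and 143 rpm in HB and AB, and 47.2 and 79.7 rpm in HA and AA. With TMM over the 4 libraries, 3 of the 3 neighbours were kept for every arm except miR-142-3p, which kept 2.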
